A study of Mus musculus with 12 samples.

Results

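The genes described here encode the NF-kB transcription factor and the proteins that restrain it. They are the 5 subunit genes Nfkb1, Nfkb2, Rela, Relb and Rel, the 3 IkB genes Nfkbia, Nfkbib and Nfkbie, the ubiquitin-editing inhibitor gene Tnfaip3 (A20 protein) and Bcl3, an atypical IkB gene. They were taken by symbol from the 48709 genes counted in each library, and each of the 10 matched 1 Ensembl identifier. All 10 were among the 14408 genes that passed the filter on low counts. The data are RNA-seq counts of mouse embryonic fibroblasts of the C57BL/6 strain, from 12 libraries in 4 groups of 3. WT cells and TAZKo cells, which lack tafazzin according to the series text and are there compared with isogenic WT cells, were each kept in normoxia or placed in hypoxia for 24 h in a hypoxia workstation. All groups grew in the same serum-supplemented medium, and the oxygen level, the knockout method and the number of cell lines or clones per genotype are not given in the sources used here. Nothing in the labels states that the 3 libraries of a group came from separate cultures, so the p-values measure only the spread between these libraries, which may be technical.

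NF-kB is a family of dimers that bind kB sites in DNA. In resting cells the IkB proteins hold the dimers in the cytoplasm, and signals from cytokine or pattern-recognition receptors activate the IKK kinase, which marks IkB for destruction and frees the dimers. Several inhibitor genes, Nfkbia and Tnfaip3 among them, are themselves NF-kB targets and form negative feedback loops, and fibroblasts use the pathway to turn on chemokine, adhesion and matrix-degrading enzyme genes. Nfkb1 and Nfkb2 encode the precursors of p50 and p52, which have no transactivation domain, whereas Rela, Relb and Rel encode the subunits that do.

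Library totals ran from 21039451 to 31204510 counts, at which 3 counts corresponded to 0.0927 to 0.15 CPM (counts per 1000000 counts of the scaled library). Tafazzin's own gene, Taz, was not lower in the libraries labelled TAZKo. It was counted at 38.0, 33.3 and 32.7 CPM in the libraries labelled WT and 45.8, 39.8 and 41.0 CPM in those labelled TAZKo in normoxia, and at 25.5, 26.4 and 23.5 CPM against 33.6, 32.8 and 35.1 CPM in hypoxia. These counts cover the whole gene, and the part removed by the knockout is not given in the sources used here, so every genotype direction below rests on the labels. Of 8 fibroblast markers, 7 were at 1 CPM or more in every group and the list summed to 10000 to 13000 CPM, but Col1a2 stood at 1.51 to 5.93 CPM and Thy1 at 0.0867 to 0.291 CPM. Replicate 1 of the WT normoxia group had the lowest mitochondrial share of counts, 0.921% against up to 1.93% elsewhere, and leaving it out changed several calls below. The part of the mitochondrial share in these changes was not tested. Fewer cells with a transcript and less of it per cell cannot be told apart in bulk RNA.

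The promoters of 8 of the 10 genes were matched by symbol in RefSeq sequences of build GRCm38.p6 (all but Nfkb1 and Relb), as windows of 250 bases before the annotated start. The kB consensus, searched on both strands, was found in 5 of these 8 genes (Nfkb2, Nfkbia, Nfkbie, Rel and Tnfaip3) and in 7 of their 11 annotated promoters, whereas 7.25% of the 32851 promoter windows in the table held it. The hypoxia-response core, ACGTG or GCGTG on either strand, occurred in 4 of the 8 (Nfkb2, Nfkbie, Rel and Tnfaip3), with no overlap with the kB matches of these genes. By window, 6 of the 11 promoters held it, beside 38.6% of all windows. Shown are the exon-free stretches for Tnfaip3, Nfkbie and Rel, whose transcripts differed with genotype and hypoxia, and for Nfkbia, the classical feedback gene, whose transcript did not pass the test in any comparison. Rela, whose transcript also differed with hypoxia and, in hypoxia, with genotype, had no match to either motif and is not shown. Capitals mark the kB consensus matches, and each stretch is written from 5′ to 3′ on its gene's strand. The Tnfaip3 stretch is chr10:19015411-19015547 (minus strand), the Nfkbie stretch chr17:45555450-45555699 (plus strand), the Rel stretch chr11:23770971-23771219 (minus strand) and the Nfkbia stretch chr12:55492648-55492897 (minus strand).
Tnfaip3: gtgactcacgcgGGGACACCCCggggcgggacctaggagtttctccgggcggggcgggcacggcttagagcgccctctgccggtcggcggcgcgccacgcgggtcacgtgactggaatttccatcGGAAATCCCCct
Nfkbie: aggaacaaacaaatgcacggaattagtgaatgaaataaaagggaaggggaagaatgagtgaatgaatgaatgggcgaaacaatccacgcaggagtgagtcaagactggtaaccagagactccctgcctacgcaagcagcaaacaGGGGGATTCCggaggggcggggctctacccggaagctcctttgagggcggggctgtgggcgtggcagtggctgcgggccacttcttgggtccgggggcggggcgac
Rel: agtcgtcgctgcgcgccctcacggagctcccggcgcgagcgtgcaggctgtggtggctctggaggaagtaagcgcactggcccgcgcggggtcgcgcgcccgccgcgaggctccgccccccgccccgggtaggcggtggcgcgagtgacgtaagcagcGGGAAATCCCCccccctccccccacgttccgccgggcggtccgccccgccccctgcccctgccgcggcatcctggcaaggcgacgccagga
Nfkbia: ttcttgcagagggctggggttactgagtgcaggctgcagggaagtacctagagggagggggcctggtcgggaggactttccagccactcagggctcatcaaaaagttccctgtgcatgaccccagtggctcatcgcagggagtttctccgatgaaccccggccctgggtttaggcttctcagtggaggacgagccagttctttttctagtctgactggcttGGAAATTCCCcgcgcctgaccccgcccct
The matches lie 125 to 116 and 12 to 3 bases before the annotated start in Tnfaip3, 106 to 97 in Nfkbie, 92 to 82 in Rel and 29 to 20 in Nfkbia. The hypoxia-response core, not marked here, lies 131 to 127, 42 to 38, 33 to 29 and 32 to 28 bases before the start in the Tnfaip3 stretch. It lies 166 to 162 and 48 to 44 bases before the start in Nfkbie and 212 to 208 and 70 to 66 in Rel. The Nfkbia stretch has no match to it. The other annotated Tnfaip3 promoter, not shown, had no kB match. A match is a description of these letters and not a measured binding site.

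Levels were compared between genes as CPM per kb of the longest coding transcript. In the WT normoxia libraries Rela (53.9 CPM per kb), Nfkbia (52.3) and Nfkb2 (43.5) were the most abundant, followed by Nfkb1 (34.7), Relb (18.6), Bcl3 (18.1), Nfkbib (11.2), Nfkbie (7.9), Tnfaip3 (4.14) and Rel (2.69). Neighbours in this order did not overlap between samples, except Rela with Nfkbia, Nfkbia with Nfkb2 and Relb with Bcl3. Rel had the lowest mean in all 4 groups. In WT hypoxia its samples overlapped those of Nfkbie, at 4.49 and 4.79 CPM per kb. Tnfaip3 stood higher in the order in hypoxia, at 15.4 CPM per kb in WT, where it overlapped Bcl3 (16.6) and Relb (13.9), and at 17.6 CPM per kb in TAZKo, where it overlapped Relb (16.5). The Nfkb1 value depends on the length used, since dividing by all annotated exon bases gives 11.8 to 14.5 CPM per kb over the groups in place of 34.7 to 42.4. On the CPM scale the highest library exceeded the lowest by 4.53-fold for Tnfaip3, 3.28-fold for Nfkbie, 2.52-fold for Rel and 2.05-fold for Rela, and by 1.26- to 1.68-fold for the other six genes.

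**Figure D1:**
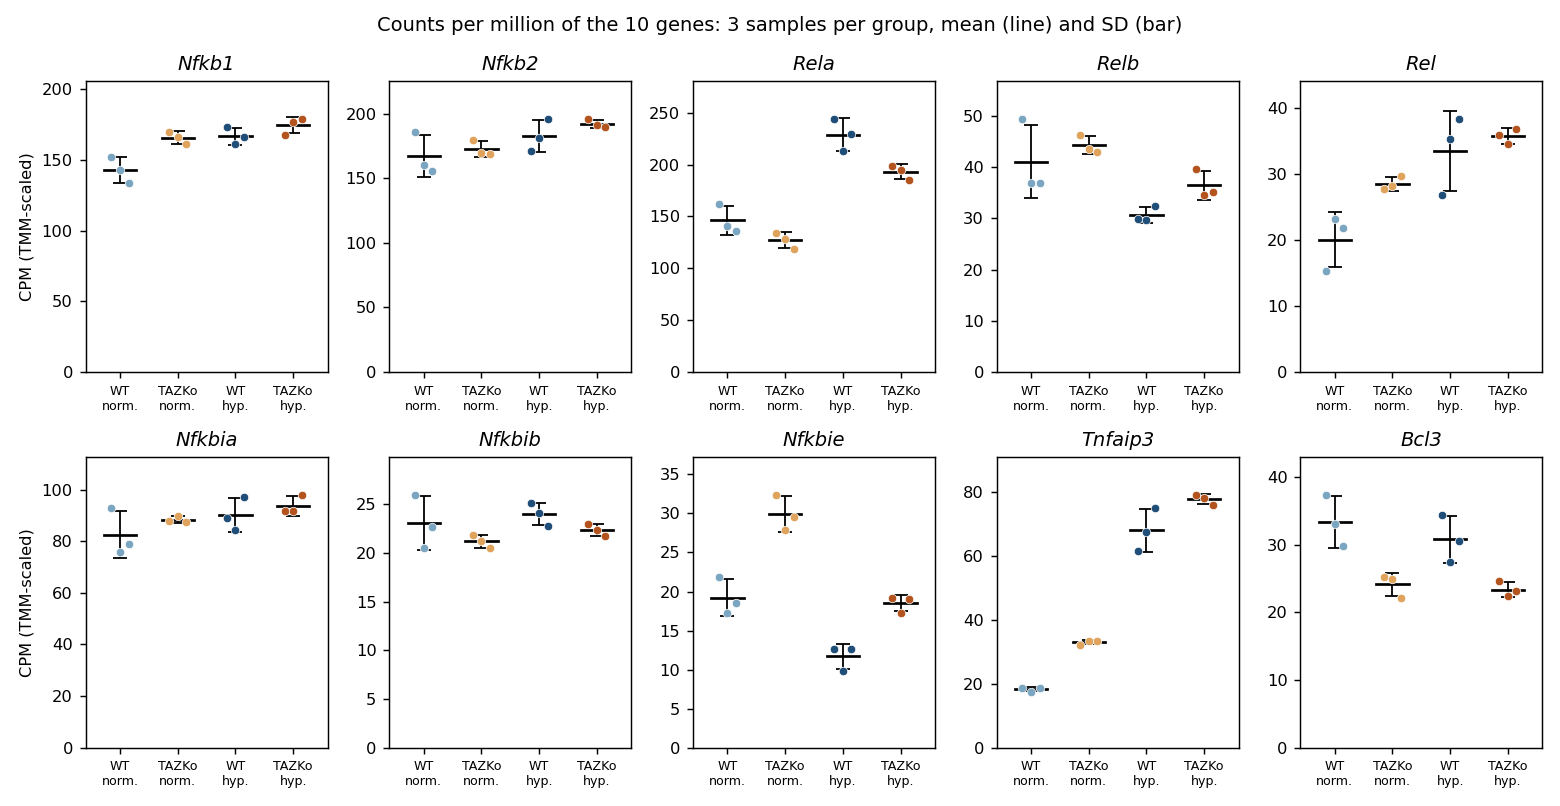
CPM scaled by TMM (y axis) of each gene in the 4 groups (x axis, norm. for normoxia and hyp. for hypoxia), with 1 point per library, the mean as a line and the SD as a bar (n = 3). The groups of Tnfaip3 do not overlap in any of the 4 comparisons, rising from 17.5 to 18.8 CPM in WT normoxia to 76.1 to 79.2 CPM in TAZKo hypoxia, whereas Nfkbia and Nfkbib stay within 75.9 to 98.0 and 20.5 to 26.0 CPM over all libraries.

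Differences were tested in 5 comparisons with edgeR's quasi-likelihood test, with p-values adjusted over all 14408 genes and a gene called at an adjusted p under 0.05. In hypoxia against normoxia, 6 of the 10 genes were called in the WT libraries, where 51% of all tested genes were called. There Nfkb1, Rela, Rel and Tnfaip3 rose (26% of all genes were called higher) and Relb and Nfkbie fell (25% were called lower). In the TAZKo libraries 4 of the 10 were called, against 43.8% of all genes. Rela and Tnfaip3 rose there (22.2% of all genes were called higher) and Relb and Nfkbie fell (21.6% lower). Between genotypes in normoxia 5 of the 10 were called, against 30.4% of all genes, with Nfkb1, Rel, Nfkbie and Tnfaip3 higher in the libraries labelled TAZKo (15.6% of all genes were higher) and Bcl3 lower (14.9%). In hypoxia 4 of the 10 differed by genotype, against 32.8% of all genes, with Nfkbie and Tnfaip3 higher (15.8%) and Rela and Bcl3 lower (16.9%). The hypoxia response itself differed between genotypes for 1 of the 10, Tnfaip3, against 2.43% of all genes (1.71% with a lower response in TAZKo and 0.722% with a higher one). Tnfaip3 stayed called in every alternative run, but the count over all genes, 350, did not hold. It was 174 to 216 without any 1 library of TAZKo normoxia or TAZKo hypoxia or without replicate 2 or 3 of WT hypoxia, 556 without replicate 1 of WT normoxia and 711 without replicate 1 of WT hypoxia. In the last of these the split turned to 415 higher and 296 lower responses in TAZKo, as it did without a low-count filter (400 and 327). With the replicate number as a block 639 genes were called.

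The median log2 change of the 10 genes in hypoxia was 0.13 in WT and 0.08 in TAZKo, against 0.01 and −0.01 over all tested genes. Their median log2 difference between genotypes (TAZKo minus WT) was 0.10 in normoxia and 0.07 in hypoxia, against 0.01 and −0.01 over all genes. The comparisons share libraries: the WT normoxia group serves both the normoxic genotype comparison and the WT hypoxia response, and the same holds for each other group. Scaling by library size alone, without TMM, shifted the median of all genes in the hypoxia responses by −0.106 (WT) and −0.094 (TAZKo). It changed the split of called genes from 3750 higher and 3605 lower to 2966 and 4817 in WT, and from 3198 and 3111 to 2470 and 4393 in TAZKo. Without replicate 2 of TAZKo normoxia, 3 of the 10 genes were called in the normoxic genotype comparison, beside 23.8% of all genes. In the hypoxic one, 2 were called without replicate 1 of WT hypoxia (30.3% of all genes). The number was also 2 without replicate 3 of TAZKo hypoxia (25.9% of all genes).

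**Figure D2:**
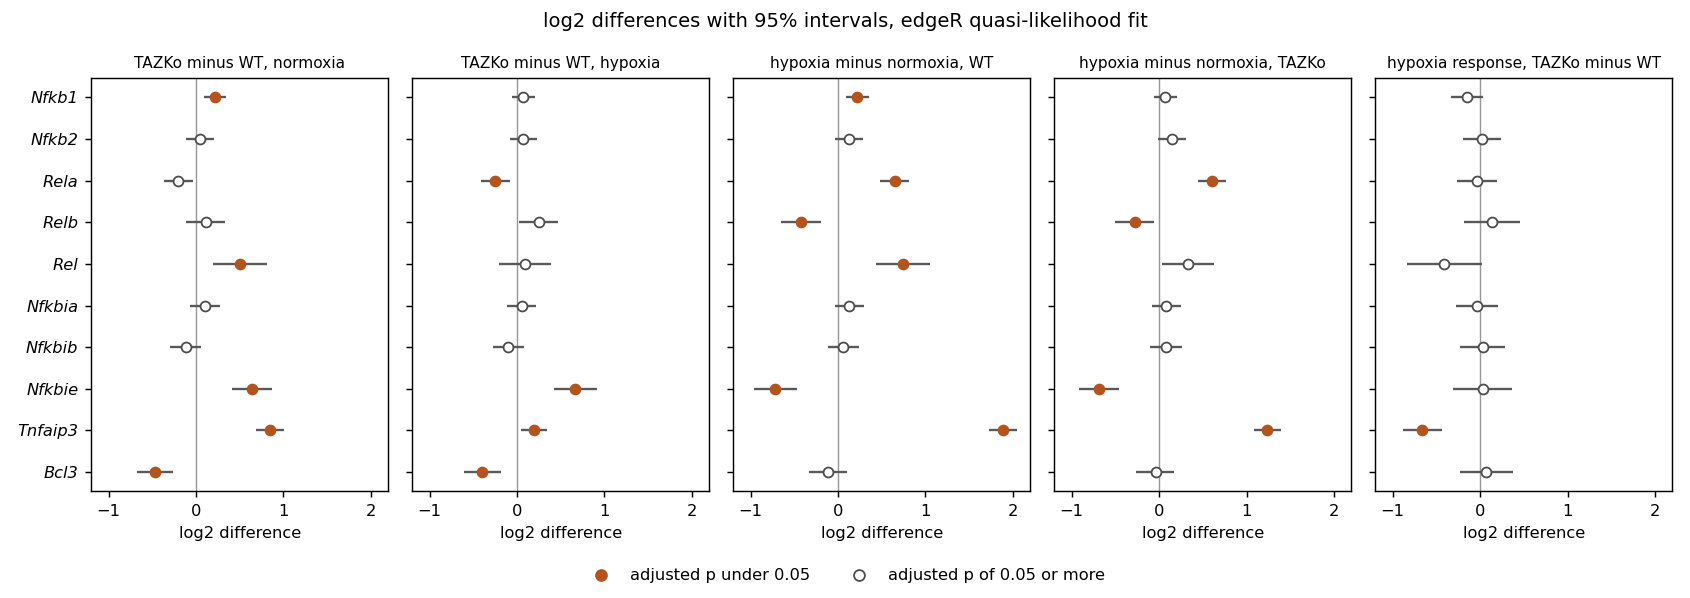
Log2 difference (x axis) of each of the 10 genes in the 5 comparisons (panels), with 95% intervals from the edgeR fit over 12 libraries. Filled points passed an adjusted p of 0.05. Tnfaip3 had the largest change in both hypoxia responses (1.89 in WT, 1.23 in TAZKo) and was the gene among the 10 whose response passed the test of a difference between genotypes (−0.66).

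Rela encodes p65, the main transactivating subunit, and is annotated at chr19:5637483-5648130 (plus strand, build GRCm38 as for all gene positions here). It was counted at 162, 141 and 136 CPM in WT normoxia and at 244, 213 and 230 CPM in WT hypoxia. In the libraries labelled TAZKo it was at 134, 128 and 119 CPM in normoxia and at 199, 195 and 185 CPM in hypoxia. Every hypoxic library was above every normoxic one, and within each condition every TAZKo library was below every WT one. Hypoxia raised Rela 1.56-fold in WT (log2 0.65, SE 0.0766, adjusted p = 1.11e-05) and 1.52-fold in TAZKo (log2 0.61, SE 0.0767, adjusted p = 2.91e-05, edgeR). The 2 responses differed by −0.04 on the log2 scale (95% interval −0.27 to 0.19, adjusted p = 0.902). Both rises passed the test in all alternatives run.

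In hypoxia, Rela was lower in TAZKo than in WT, with a log2 difference of −0.25 (SE 0.0761, adjusted p = 0.0242 in edgeR). In normoxia the difference was −0.21 (SE 0.0766, adjusted p = 0.0569) and missed the threshold without a block for the replicate number. Same-numbered libraries of these 2 groups deviated together, but replicates 2 and 3 also did so across numbers (correlations of 0.116 and 0.112). With that block the difference passed (−0.20, edgeR adjusted p = 0.0126). The hypoxic call was lost without replicate 1 (−0.21, adjusted p = 0.068) or 3 (−0.25, 0.0513) of WT hypoxia or replicate 3 of TAZKo hypoxia (−0.22, 0.0769), with adjusted p from 0.00306 to 0.0769 over the 12 fits that each left out 1 library. The normoxic difference also passed with DESeq2 (−0.22, adjusted p = 0.045), without a low-count filter (−0.24, 0.0215), with sequencing lane in the fit (−0.21, adjusted p = 0.0252) and in 9 of its 12 such fits, and it was −0.13 without replicate 1 of WT normoxia, with adjusted p from 0.0162 to 0.154. Rela and Nfkb2 lie on chromosome 19, where the 492 tested genes had a median genotype difference of −0.27 in normoxia and −0.28 in hypoxia, and 47% and 48.6% were called lower in TAZKo. The part of this chromosome-wide difference in the Rela result was not tested.

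Rel encodes c-Rel, the transactivating subunit best known from lymphocytes, and is annotated at chr11:23736847-23770970 (minus strand). Its counts were 15.3, 23.2 and 21.8 CPM in WT normoxia and 26.8, 35.4 and 38.4 CPM in WT hypoxia. The TAZKo libraries held 27.7, 28.2 and 29.7 CPM in normoxia and 36, 34.6 and 36.9 CPM in hypoxia. The WT normoxia libraries were below those of the other 3 groups, and the hypoxic groups overlapped each other. Rel rose 1.67-fold with hypoxia in WT (log2 0.74, SE 0.143, adjusted p = 0.000696). In TAZKo its change was 1.26-fold (log2 0.33, SE 0.139, adjusted p = 0.0724) and missed the threshold in the edgeR fit, although no library overlapped between the conditions. This call depends on the setting: over the alternatives that kept all libraries compared, its adjusted p ran from 0.000352 to 0.183.

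The difference between the Rel responses, −0.41 (95% interval −0.84 to 0.02, adjusted p = 0.344), did not pass the test. In normoxia Rel was 1.42-fold higher in the libraries labelled TAZKo (log2 0.50, SE 0.143, adjusted p = 0.0162). That call was lost without replicate 2 (0.48, adjusted p = 0.0577) or replicate 3 (0.44, 0.0816) of TAZKo normoxia, and the difference was 0.34 without replicate 1 of WT normoxia, with adjusted p from 0.0101 to 0.0816 over the 12 fits. In hypoxia the genotypes differed by 0.09 (95% interval −0.21 to 0.39, adjusted p = 0.655).

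Relb, the partner of p52 in the non-canonical pathway, is annotated at chr7:19606217-19629438 (minus strand) and fell in WT hypoxia, where Rela and Rel rose. Its levels were 49.4, 37.0 and 36.9 CPM in WT normoxia and 29.8, 29.6 and 32.5 CPM in WT hypoxia. In the TAZKo libraries they were 46.3, 43.5 and 43.0 CPM in normoxia and 39.7, 34.5 and 35.2 CPM in hypoxia. No hypoxic library of either genotype reached a normoxic one of that genotype. Relb fell by 0.42 on the log2 scale in WT (SE 0.105, adjusted p = 0.00409 in edgeR), or by 0.27 without replicate 1 of WT normoxia, which still passed. In TAZKo it fell by 0.28 (SE 0.103, adjusted p = 0.0404), a call that was lost without replicate 1 (−0.28, adjusted p = 0.0735) or 2 (−0.32, 0.0515) of TAZKo normoxia or replicate 2 (−0.27, 0.0943) or 3 (−0.29, 0.0801) of TAZKo hypoxia, over a range of 0.00166 to 0.0943. It was also lost with sequencing lane in the fit (−0.25, edgeR adjusted p = 0.0637), with DESeq2 size factors (−0.28, 0.054) and with a filter at a 5 CPM mean (−0.26, 0.0674). Over the alternatives that kept all libraries, the adjusted p of this fall ran from 0.00254 to 0.0674. In hypoxia all TAZKo libraries were above all WT libraries, by 0.25 (SE 0.105, adjusted p = 0.0873), which missed the threshold. That difference passed without a low-count filter (0.27, edgeR adjusted p = 0.025), with the replicate block (0.24, 0.0391) and in a fit of only the 6 libraries compared (0.26, 0.0157). Without replicate 1 of WT normoxia it passed as well (0.25, adjusted p = 0.00718), and so did the normoxic one (0.26, adjusted p = 0.0113), which with all 12 libraries was 0.11 (adjusted p = 0.471).

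Nfkb1, at chr3:135584655-135691547 (minus strand), encodes the p105 precursor of p50. It stood at 152, 143 and 134 CPM in WT normoxia, 170, 166 and 161 with TAZKo in normoxia, 173, 161 and 166 with WT in hypoxia and 168, 177 and 179 with TAZKo in hypoxia. WT normoxia was the low group, and the other 3 groups overlapped. The WT response and the normoxic genotype difference, which share the WT normoxia libraries, were both 0.22 on the log2 scale (SE 0.0598 and 0.0597, adjusted p = 0.00716 and 0.0143). The WT rise was 0.11 with scaling by library size alone (adjusted p = 0.146) and 0.14 without a low-count filter (adjusted p = 0.199), and both missed the threshold. It was also lost without WT normoxia replicate 2 (0.17, adjusted p = 0.0623) or 3 (0.12, 0.134) or WT hypoxia replicate 1 (0.14, 0.0877) or 3 (0.17, 0.064), within a range of 0.000806 to 0.134 over the 12 fits. The genotype call was lost without WT normoxia replicate 2 (0.18, adjusted p = 0.0649) or 3 (0.13, 0.124) or TAZKo normoxia replicate 1 (0.17, 0.0941) or 2 (0.18, 0.087), within a range of 0.0017 to 0.124, and without a low-count filter (0.18, adjusted p = 0.105). In fits of only the 6 libraries compared, both calls were lost, at 0.17 for the WT rise (adjusted p = 0.106) and 0.21 for the genotype difference (adjusted p = 0.0576). On chromosome 3 the 748 tested genes had a median of 0.10 in the WT response, with 30.1% called higher and 18.7% lower, and of 0.13 in the normoxic genotype difference, with 20.7% higher and 8.02% lower, beside 0.01 over all genes in both. The part of the chromosome in the Nfkb1 result was not tested.

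Nfkb2, at chr19:46304320-46312385 (plus strand), encodes the p100 precursor of p52. It ranged from 156 to 196 CPM over the 12 libraries and was not called in any comparison of the fit over all libraries. Its hypoxia change was 0.13 in WT (95% interval −0.03 to 0.28) and 0.15 in TAZKo (−0.01 to 0.31). Of its 50-base transcript words, 18.5% also occur in the opposite-strand neighbours Psd and AC114539.1, and the library kit does not mark strand, so its counts are uncertain. Without replicate 1 of WT normoxia its changes passed the test, at 0.21 in WT (adjusted p = 0.00743) and 0.15 in TAZKo (adjusted p = 0.0254). In a fit of only the 6 TAZKo libraries the change of 0.15 passed as well (adjusted p = 0.00958).

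The make-up of the subunit transcripts was computed as shares of their summed CPM per kb. Rela took 35.1% ± 0.144 (SD, n = 3) of the sum in WT normoxia and 44.2% ± 1.96 in WT hypoxia. With TAZKo the values were 30% ± 0.686 and 38.5% ± 0.814. The Rela share was thus higher in hypoxia in both genotypes with no overlap between libraries, and it was lower in TAZKo in both conditions, also without overlap. The Relb share was smaller in hypoxia, going from 12.1% ± 0.986 to 7.28% ± 0.284 in WT and from 12.9% ± 0.139 to 8.93% ± 0.567 in TAZKo. Rel contributed 1.78% to 2.60% on average in every group. The sum of the 3 IkB transcripts per unit of the subunit sum was 0.465 ± 0.0216 in WT normoxia and 0.386 ± 0.0106 in WT hypoxia. With TAZKo it was 0.504 ± 0.0116 and 0.421 ± 0.0185. These ratios describe transcripts and were not tested.

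**Figure D3:**
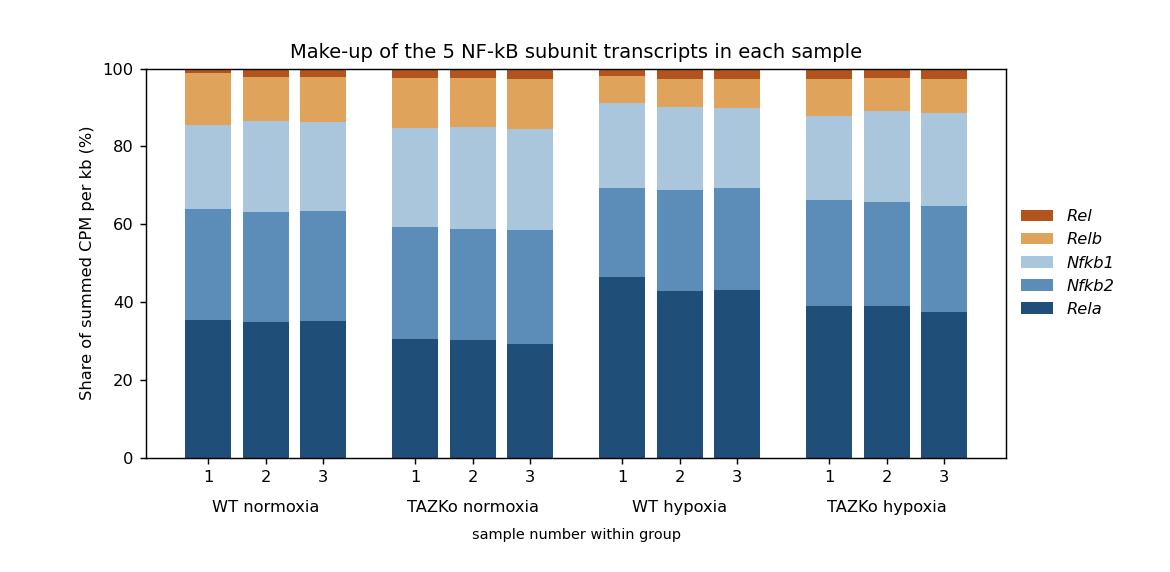
Share (%) of each subunit gene in the summed CPM per kb of the 5 subunit genes (y axis), with 1 bar per library in the 4 groups (x axis). The Rela share averages 35.1% and 44.2% in WT normoxia and hypoxia and 30% and 38.5% in TAZKo, while the Relb share goes from 12.1% to 7.28% and from 12.9% to 8.93%.

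Tnfaip3 encodes A20, a ubiquitin-editing enzyme that shuts down signalling upstream of IKK, and is annotated at chr10:19000910-19015657 (minus strand). It was counted at 18.8, 17.5 and 18.7 CPM in WT normoxia and at 61.6, 67.5 and 74.9 CPM in WT hypoxia. The TAZKo libraries held 32.3, 33.5 and 33.5 CPM in normoxia and 79.2, 78.2 and 76.1 CPM in hypoxia. The 4 groups did not overlap, and the TAZKo libraries were above the WT ones in both conditions. Tnfaip3 rose 3.72-fold with hypoxia in WT (log2 1.89, SE 0.0740, adjusted p = 2.41e-10) and 2.35-fold in TAZKo (log2 1.23, SE 0.0707, adjusted p = 1.54e-08, edgeR). On the log2 scale the TAZKo response was smaller, with a difference of −0.66 (SE 0.101, 95% interval −0.88 to −0.44, edgeR adjusted p = 0.00421). Leaving out each library in turn gave a difference of −0.70 to −0.56 with adjusted p up to 0.0253.

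Before hypoxia, Tnfaip3 was 1.81-fold higher in the libraries labelled TAZKo (log2 0.85, SE 0.0741, adjusted p = 1.56e-06), and this passed in all alternatives. In hypoxia it was 1.14-fold higher (log2 0.19, SE 0.0688, adjusted p = 0.0452). That call held in 2 of the 12 fits that left out 1 library, namely those without replicate 1 of WT normoxia and without replicate 3 of WT hypoxia. Its value ran from 0.12 without replicate 1 of WT hypoxia to 0.26, and its adjusted p from 0.0123 to 0.199. With DESeq2 its adjusted p was 0.055, within a range of 0.0313 to 0.0731 over the alternatives that kept all libraries. Tnfaip3 lies on chromosome 10, where the 676 tested genes had a median genotype difference of 0.31 in normoxia and 0.29 in hypoxia and where 55.9% and 47.2% were called higher in TAZKo. The median difference between hypoxia responses on that chromosome was −0.03. The part of the chromosome in the Tnfaip3 genotype result was not tested.

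Nfkbie encodes IkB-epsilon, which retains Rela and Rel dimers in the cytoplasm, and is annotated at chr17:45555703-45563169 (plus strand). Its levels were 21.9, 17.3 and 18.5 CPM in WT normoxia and 12.6, 9.87 and 12.6 CPM in WT hypoxia. In the TAZKo libraries they were 32.4, 27.9 and 29.5 CPM in normoxia and 19.2, 17.3 and 19.0 CPM in hypoxia. Each hypoxic group was below its normoxic group, and each TAZKo group was above its WT group, without overlap. Nfkbie fell with hypoxia, with a log2 change of −0.72 in WT (SE 0.114, adjusted p = 0.000137) and −0.69 in TAZKo (SE 0.107, adjusted p = 0.000156, edgeR). The genotype difference was 1.55-fold in normoxia (log2 0.64, SE 0.107, adjusted p = 0.000514) and 1.58-fold in hypoxia (log2 0.66, SE 0.113, adjusted p = 0.000561). The responses differed by 0.03 (95% interval −0.31 to 0.36, adjusted p = 0.958). The 4 called Nfkbie differences passed the test in all alternatives, and chromosome 17 as a whole had median genotype differences of −0.01 and −0.02. As a share of the 3 IkB transcripts per kb, Nfkbie went from 11.1% to 6.50% with hypoxia in WT and from 15.6% to 9.76% in TAZKo.

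Nfkbia encodes IkB-alpha, the rapidly resynthesised inhibitor of the canonical pathway, and is annotated at chr12:55489410-55492647 (minus strand). It was counted at 93.0, 75.9 and 78.8 CPM in WT normoxia, 88.0, 89.8 and 87.3 with TAZKo in normoxia, 88.8, 84.3 and 97.2 with WT in hypoxia and 91.5, 91.5 and 98.0 with TAZKo in hypoxia. The groups overlapped except between the TAZKo conditions. Its hypoxia change was 0.13 in WT (95% interval −0.04 to 0.30, edgeR adjusted p = 0.197) and 0.08 in TAZKo (−0.08 to 0.25, adjusted p = 0.416). The genotype differences were 0.10 and 0.06, with intervals of −0.07 to 0.27 and −0.11 to 0.22. Without replicate 1 of WT normoxia the WT hypoxia change was 0.22 (adjusted p = 0.00864) and the normoxic genotype difference 0.19 (adjusted p = 0.0283), and both passed.

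Nfkbib, which encodes IkB-beta, lies at chr7:28758251-28767512 (minus strand) and ranged from 20.5 to 26.0 CPM. It was not called in any comparison, and its log2 differences between groups ran from −0.12 to 0.08. The intervals of its hypoxia change were −0.12 to 0.24 in WT and −0.10 to 0.26 in TAZKo. Of its 50-base words 13.3% are shared with the opposite-strand neighbour Ccer2.

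Bcl3 encodes a nuclear IkB-family protein that binds p50 or p52 homodimers and can lend them transactivating function. It lies at chr7:19808462-19822770 (minus strand). Its levels were 37.4, 33.0 and 29.8 CPM in WT normoxia against 25.2, 25.0 and 22.2 with TAZKo. In hypoxia they were 34.4, 27.4 and 30.6 CPM with WT against 24.6, 22.4 and 23.1 with TAZKo. Every TAZKo library was below every WT library of the same condition, whereas the conditions overlapped within each genotype. Bcl3 was lower in the libraries labelled TAZKo, with a log2 difference of −0.47 in normoxia (SE 0.0992, adjusted p = 0.0027) and −0.40 in hypoxia (SE 0.0998, adjusted p = 0.00761), and both passed in all alternatives. Its hypoxia change was −0.12 in WT (95% interval −0.33 to 0.10) and −0.04 in TAZKo (−0.26 to 0.17), and neither passed. An antisense gene, Gm16175, overlaps 6.51% of its exon bases, and reads from either strand cannot be told apart. Relb, Nfkbib and Bcl3 lie on chromosome 7, whose median genotype differences were 0.03 and 0.04.

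Over the 12 libraries, the pairs of these genes whose log2 CPM moved most alike were Relb and Nfkbie (Pearson r = 0.89), Rel and Tnfaip3 (0.87) and Nfkb2 and Nfkbia (0.84). The most opposed were Rela and Nfkbie (−0.82) and Rela and Relb (−0.74). These points share the 4 groups and the library scaling. Among all tested genes, those most like Tnfaip3 were Rabgef1 (r = 0.992) and Swap70 (0.991), and those most like Rela were Mrpl45 and Cdkn2b (both 0.993). For Nfkbie they were Appl2 (0.986) and Afg1l (0.985), both on chromosome 10. For Rel they were Ncoa7 (0.987) and Ptchd4 (0.982), and for Bcl3 they were B3gat3 (0.990) and Pla2g6 (0.975). The nearest genes of the others were Micall1 (0.960) and G730003C15Rik (0.958) for Relb, Ngef (0.953) and Ccno (0.950) for Nfkb1, 1700056E22Rik (0.944) and Napa (0.931) for Nfkb2, Raly (0.918) and Ciao1 (0.914) for Nfkbib, and Cep295nl (0.882) and Rps19 (0.858) for Nfkbia.

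The rest of the pathway is described from lists of its genes. Of 10 ligand genes that activate NF-kB, 1 passed the filter, Tnfsf12 (TWEAK), which fell with hypoxia (log2 change −0.80 in WT, adjusted p = 8.89e-05, and −0.54 in TAZKo, adjusted p = 0.00171, edgeR). Of 11 receptor genes 9 were tested, and with hypoxia 6 rose and 3 fell in WT (26% and 25% of all genes), and 4 rose and 2 fell in TAZKo (22.2% and 21.6%). Among them Tnfrsf12a, the TWEAK receptor, rose (1.0 and 0.67), as did Tlr4 (0.92 and 0.78). Of the TNF receptor genes, Tnfrsf1a fell (−0.69 and −0.28) and Tnfrsf1b rose (0.43 and 0.49). The lipoprotein sensor Tlr2 was higher in the libraries labelled TAZKo in normoxia (1.35), as Tnfaip3 was. Its hypoxia response was also lower in them (−0.63, edgeR adjusted p = 0.00497). Unlike Tnfaip3, which rose in both genotypes, Tlr2 rose in WT (0.49) and was not called in TAZKo (−0.13). Of 24 kinase and adaptor genes, all tested, 11 rose and 5 fell in WT hypoxia and 7 rose and 1 fell in TAZKo hypoxia. These are 16 and 8 of the 24, beside 51% and 43.8% of all genes, with Traf6, a ubiquitin ligase upstream of IKK, highest among the rises (0.80 and 0.54). Of 13 other inhibitor genes 12 were tested. In WT hypoxia 6 rose and 2 fell, and in TAZKo hypoxia 5 rose and 2 fell, that is 8 and 7 of 12 beside the same 51% and 43.8%. These counts depend on the libraries and the scaling: the WT count was 5 (3 rises) in 11 of the 12 fits that left out 1 library, all but the one without replicate 1 of WT normoxia, with library size alone and without a low-count filter. The TAZKo count was 4 under the last 2 of these settings and without any 1 library of TAZKo normoxia or replicate 1 or 2 of TAZKo hypoxia. The nuclear IkB gene Nfkbiz rose (1.5 and 1.14), as did the deubiquitinase gene Cyld (1.21 and 0.88), and the A20-binding gene Tnip1 fell (−0.62 and −0.45). Between genotypes 2 receptor genes were higher and 2 lower in TAZKo in each condition, 4 of 9 beside 30.4% of all genes in normoxia and 32.8% in hypoxia, with the interleukin receptor gene Il1r1 among the higher ones (0.58 and 0.62). Among kinases and adaptors 7 were higher and 2 lower in normoxia and 5 and 4 in hypoxia, so 9 of 24 in each, near the 30.4% and 32.8% of all genes. The normoxic count was 4 without a low-count filter, without replicate 2 of WT normoxia or without replicate 1 or 2 of TAZKo normoxia, and 3 without replicate 3 of TAZKo normoxia. Among the other inhibitors 1 of 12, Nfkbiz, was lower in both (−0.38 and −0.73), but 3 were called in each condition without replicate 1 of WT normoxia, 2 in normoxia without replicate 1 of WT hypoxia, and 3 in normoxia and 2 in hypoxia with the replicate block.

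Of 30 NF-kB target genes 28 were tested, and with hypoxia 10 rose and 7 fell in WT and 9 rose and 7 fell in TAZKo. These are 17 and 16 of 28, beside 51% and 43.8% of all genes, which were also split between both directions. The stress-response gene Ier3 rose from 37.8 ± 2.75 to 334 ± 25.6 CPM in WT and from 30.7 ± 1.96 to 153 ± 3.83 in TAZKo (SD, n = 3). The prostaglandin synthase gene Ptgs2 rose from 10.7 ± 2.04 to 62.9 ± 11 CPM and from 8.41 ± 1.16 to 17.7 ± 0.507. Falling targets included the adhesion gene Vcam1 (−1.43 in WT and −1.75 in TAZKo) and the chemokine gene Cxcl1 (−1.25 in WT and −1.23 in TAZKo). The response differed between genotypes for 4 of the 28 targets, all lower in TAZKo: Ptgs2 (−1.49, edgeR adjusted p = 0.00247), Cxcl10 (−0.92, 0.00177), Ier3 (−0.82, 0.00148) and Ccl7 (−0.54, 0.0135). Ptgs2 and Ier3 rose in both genotypes, but Cxcl10 was not called in WT (−0.18) and fell in TAZKo (−1.10). Ccl7 rose in WT (0.46) and was not called in TAZKo (−0.08). Over all genes 2.43% were called and 1.71% had a lower response, shares that move with the library left out as given above. The calls of Ptgs2, Cxcl10 and Ier3 held in every fit that left out 1 library, whereas that of Ccl7 was lost without replicate 2 of TAZKo normoxia (adjusted p = 0.062), replicate 3 of WT hypoxia (0.0575) or replicate 1 (0.0502) or 2 (0.0625) of TAZKo hypoxia. Between genotypes the targets were called in equal numbers in normoxia (8 higher and 8 lower in TAZKo, beside 15.6% and 14.9% of all genes), and in hypoxia 6 were higher and 11 lower (15.8% and 16.9% of all genes). The list medians in hypoxia against normoxia were 0.49 and 0.36 for receptors, 0.23 and 0.05 for kinases and adaptors, 0.21 and 0.06 for other inhibitors and 0.05 and −0.05 for targets in WT and TAZKo, beside 0.01 and −0.01 over all genes.

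**Figure D4:**
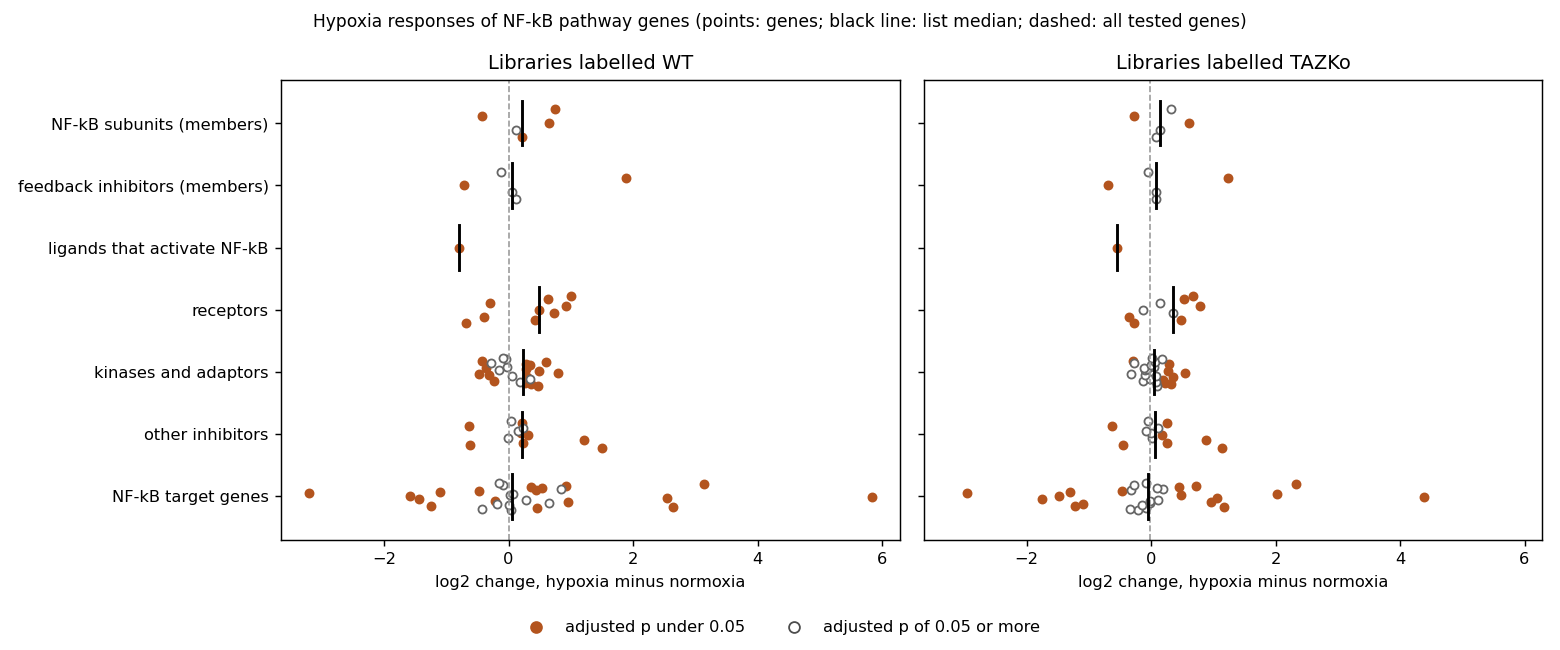
Log2 change with hypoxia (x axis) of each tested pathway gene (points, filled where the adjusted p was under 0.05) in the libraries labelled WT (left) and TAZKo (right), by list (y axis), with the list median as a black line and the median of all tested genes dashed. Receptor genes have the highest list medians (0.49 and 0.36), and every list with more than 1 tested gene holds genes on both sides of 0.

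Blood-cell markers moved with hypoxia: the 8 listed genes summed to 10.0 to 11.3 CPM in the normoxic libraries, 19.7 to 24.5 in WT hypoxia and 16.2 to 18.5 in TAZKo hypoxia. The pan-leukocyte gene Ptprc was at 0 or 1 count and the macrophage gene Adgre1 at 0 in all 12 libraries, while Cd14, Cd68 and Csf1r made up most of the sum. Endothelial Tek was at 11.1 to 17.4 CPM in the WT libraries and 2.72 to 5.72 CPM in the TAZKo libraries, with Cdh5 at 0 to 2 counts. Of the epithelial markers Krt18 was at 97.3 to 150 CPM, and Epcam and Cdh1 did not exceed 0.616 CPM. The part of these markers in the results for the NF-kB genes was not tested.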

How the data were processed

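The data are 12 deposited tables of whole-number read counts per Ensembl gene, made by the authors with no normalization and used as deposited. Per the submitters' processing notes the build was mm10; the aligner, counter and annotation are not given in the sources used here. Per the labels' protocols, Trizol RNA was made into libraries with a TruSeq v2 kit. Gene symbols, coordinates and lengths came from GENCODE M21 (GRCm38), which held 48349 of the 48709 identifiers. The members and all lists were chosen with earlier results of these data known.

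Counts were filtered with filterByExpr, scaled by TMM and fitted in edgeR 4.0.16 (R 4.3.3) with 1 coefficient per group over 12 libraries. Quasi-likelihood F tests were adjusted by the Benjamini-Hochberg method over 14408 genes, with a threshold of 0.05. The fit was tested on simulated data. SE is the log2 difference divided by the square root of F, and the 95% intervals use the fitted degrees of freedom. The biological coefficient of variation was 8.62%. CPM per kb used the longest protein-coding transcript.

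Replicate numbers come from the sample titles, which give no shared culture or day. The correlation of deviations from group means exceeded 0.1 for all 3 same-numbered pairs of WT normoxia with TAZKo normoxia (0.149 to 0.354) and with WT hypoxia (0.152 to 0.368). The main fit did not pair libraries, and the number entered only as a block in an alternative fit. Replicates 2 and 3 also exceeded 0.1 across numbers, at 0.116 and 0.112 with TAZKo normoxia and 0.147 and 0.18 with WT hypoxia. The values thus set replicate 1 apart and do not settle a pairing of replicates 2 and 3. Same-numbered pairs exceeded 0.1 in 1 of 3 cases between genotypes in hypoxia and 0 of 3 in the TAZKo response.

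Alternatives were DESeq2 size factors, library size alone, DESeq2 1.42.0, no filter, a filter at a 5 CPM mean, the replicate number as a block, the sequencing lane, each library left out, and the 6 compared libraries alone. Named pathway genes were at most the 4 with the largest difference per list, direction and comparison among called genes with a mean of 1 CPM or more in a compared group, and the 2 genes most correlated with each member (log2 CPM, prior count 2). The 3-count floor covers counting error only.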

Additional observations from a re-analysis of the deposited data

Results flagged for a closer look

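The hypoxia response of Tnfaip3 was smaller in the libraries labelled TAZKo than in those labelled WT, with a log2 difference of −0.66, and the test of that difference passed (edgeR adjusted p = 0.00421). The gene was set apart because the effect of hypoxia differed between the genotypes. In each genotype all hypoxic libraries were above all normoxic ones. The Tnfaip3 group mean went from 18.3 ± 0.730 CPM in normoxia to 68 ± 6.69 in WT and from 33.1 ± 0.665 to 77.8 ± 1.55 in TAZKo (SD, n = 3). The responses were compared on the log2 scale only, and a difference between the rises in CPM was not tested.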

How the results depend on the processing

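Over 50 gene-by-comparison results and 990 alternative values, 887 kept their direction and side of the threshold, 38 lost a call, 28 gained one and 37 changed sign. Of those that changed sign, none was called with either setting. The causes were not tested. Leaving out 1 library gave 3 to 7 called genes for the normoxic genotype difference, 2 to 5 for the hypoxic one, 5 to 8 for the WT response, 3 to 6 for the TAZKo response and 1 for the difference of responses. The shares of all genes called in these fits moved too. They ran from 22.8% to 33.8% and 25.6% to 41.9% for the genotype differences. For the responses they ran from 44.4% to 52.3% in WT and 36.5% to 52.3% in TAZKo, and for their difference from 1.19% to 4.84%. With library size alone the sign changed for Nfkbib in the WT response (−0.05) and for Nfkb1 (−0.02), Nfkbia (−0.01) and Nfkbib (−0.01) in the TAZKo response. Without a filter it changed for Nfkbib in the WT response (−0.02) and for Rela (0.01) and Nfkbia (0.01) in the difference of responses, and with lane as a covariate for Bcl3 in the TAZKo response (0.02). Leaving out 1 library gave ranges that crossed 0 for Nfkb2 (−0.03 to 0.13) and Relb (0.0 to 0.26) in the normoxic genotype difference, Rel (−0.05 to 0.2) in the hypoxic one and Nfkbib (−0.07 to 0.14) in the WT response. They also did so in the difference of responses for Nfkb2 (−0.06 to 0.1), Rela (−0.12 to 0.04), Relb (−0.01 to 0.24), Nfkbia (−0.14 to 0.04), Nfkbib (−0.06 to 0.12), Nfkbie (−0.08 to 0.12) and Bcl3 (−0.02 to 0.18).

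With the replicate number as a block, 6, 5, 6, 5 and 1 of the 10 genes were called in the 2 genotype comparisons, the WT and TAZKo responses and their difference. Over all genes the shares called also rose, in the same order to 36.2%, 38.3%, 55.7%, 48.7% and 4.44%. Without the block they were 30.4%, 32.8%, 51%, 43.8% and 2.43%. With it the Tnfaip3 difference of responses was −0.66 (edgeR adjusted p = 0.00228). The block added 3 calls and ended none: Rela in normoxia between genotypes (−0.20, adjusted p = 0.0126), Relb in hypoxia between genotypes (0.24, 0.0391) and Rel in the TAZKo response (0.33, 0.0199). Over all genes the difference of responses was called for 639 genes with the block and 350 without, 574 with DESeq2 and 727 without a filter. The block uses 1 number over all 4 groups. All 3 same-numbered pairs deviated together only for WT normoxia with TAZKo normoxia and with WT hypoxia. There replicates 2 and 3 did so across numbers as well, so a pairing by number is not settled. In these 2 comparisons the block changed the call of 1 of the 10 genes, Rela.

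With sequencing lane in the fit, the Relb fall in TAZKo lost its call and Rela in normoxia between genotypes gained one, and no other call changed. Lane, read from file names, goes in part with sample number and in part with condition. Replicate 2 was on lane 4 in both normoxia groups and on lane 5 in both hypoxia groups. Each of the 10 genes had 220 or more counts in every library.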
